A study of Drosophila melanogaster with 60 samples.

Results

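CG15369 and CG14629 are a pair of protein-coding genes on the X chromosome of Drosophila melanogaster whose transcripts were higher in females than in males among animals that develop without a germline. Each was measured by a single long oligonucleotide, DAC026H03 for CG15369 and DAC032A04 for CG14629, so the pair makes up 2 of the 15744 probes on the arrays. Both were chosen by their mean sex difference in tud progeny, which is therefore described below without a test. RNA came from pools of whole pupae of both sexes at 0, 24, 48, 72 and 96 h after puparium formation (APF). Every array compared a pool with a common reference of male and female Canton S pupae of all stages, and 3 arrays were deposited for every combination of genotype, sex and hour, giving 20 groups and 60 arrays. Wild type pupae of both sexes were Canton S. The tud progeny, which lack germ cells, were born to tud1 bw1 sp1 mothers and y, w fathers whose X chromosome carried P[w+cM UBI-GFP], a GFP transgene under a ubiquitin promoter, together with an FRT insertion, and the sexes were sorted by that paternal GFP. Female tud progeny thus carried an X chromosome of the father's strain and male tud progeny did not, so that sex and the origin of the X chromosome cannot be told apart in tud progeny for genes on the X. Likewise, the genotype comparison sets animals of another strain background and of mutant mothers against Canton S.

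CG15369 is annotated as a cysteine protease inhibitor of the cystatin family, and CG14629 has no described function. Cystatins are small proteins that bind in the active site of papain-like cysteine proteases, the cathepsins among them, and block them. Cathepsins work in lysosomes and are prominent at metamorphosis, when larval tissues such as the fat body and the salivary glands are broken down and their contents are used to build the adult. Males have a single X chromosome where females have a pair, and in flies the roX RNAs and the male-specific lethal proteins raise transcription of the male X to balance this. In the current gene annotation CG15369 stands beside the odorant binding protein gene Obp8a and tan. CG14629 lies within the span of a long noncoding RNA gene, lncRNA:CR44779, and whether DAC032A04 can take signal from that RNA is not known.

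The libraries were checked with RNAs of known sex or tissue. The log2 ratio of roX1, which coats the male X, was between 0.30 and 1.88 on 15 wild type male arrays and at most -2.45 on 14 wild type female arrays, and between 0.20 and 2.01 on 15 tud male arrays against at most -3.10 on 14 tud female arrays. RoX1 had no value on wild type female 72 h replicate 3 and tud female 96 h replicate 2. Its partner roX2 overlapped between the sexes in wild type, with ratios from -4.47 to 0.87 on 13 female arrays and from -0.22 to 1.52 on 10 male arrays. In tud progeny the sexes did not overlap on the arrays with a value, from -2.26 to 0.16 on 5 female arrays and from 0.41 to 2.01 on 13 male arrays. The labels and the methods name opposite dyes for the sample, and with roX1 higher in males a higher ratio likely means more transcript in the sample. Of the male germline markers, Male-specific RNA 87F was at or above -0.39 in wild type males and between -5.32 and -2.66 in tud males, and beta-Tubulin at 85D was at or above -0.25 in wild type males and at most -2.96 in tud males. The female germline and hemocyte lists had no probe paired with a name, and their levels were not analysed here. The number of probes with a value ran from 3954 to 10236 per array, and the array medians from -0.03 to 0.33. For tud female 48 h, replicate 1 carries the description of the reference and replicate 2 an age that differs from its title, so values that rest on them are also given without them. The labels do not say whether the 3 arrays of a group came from separate collections, so p-values rest on a spread between arrays that may be technical. For each probe the fit pools that spread over all 20 groups. SE and p-values in wild type thus also take in the spread of the tud arrays.

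CG15369 was low relative to the reference in wild type pupae of both sexes and close to the reference in tud females. The reference held Canton S pupae too, and the paper describes 1 fixed dye for the sample throughout the time course. A ratio's distance from 0 therefore need not reflect transcript amount alone. Wild type females had log2 ratios of -1.76, -1.73 and -1.41 at 0 h, -1.17, -1.34 and -1.46 at 24 h, and -1.85, -1.40 and -1.53 at 48 h. Their ratios were -0.84, -1.17 and -1.002 at 72 h and dropped to -2.34, -2.45 and -3.00 at 96 h, the group with the lowest mean of all 20. Wild type males had -1.31, -1.85 and -2.46 at 0 h, -2.37, -1.59 and -1.93 at 24 h, and -1.84, -1.54 and -1.74 at 48 h. Levels in females were thus highest at 72 h and then dropped, whereas the hour means of wild type males lay within 0.35 of each other, with arrays at -1.72, -1.51 and -1.62 at 72 h and at -1.58, -1.58 and -1.92 at 96 h. Tud females had 0.64, 0.65 and 0.99 at 0 h, 0.51 and -0.15 on the 2 arrays with a value at 24 h, and -0.09, 0.08 and 0.23 at 48 h. They had 0.38, 0.20 and -0.11 at 72 h, and 0.86 and -0.15 on the 2 arrays with a value at 96 h. Tud females thus stayed above every wild type array at all hours. The 2 missing values, at 24 and 96 h in tud females, are the only ones of CG15369 on the 60 arrays. Tud males had -0.17, -0.15 and -0.18 at 0 h, -0.88, -0.52 and -1.21 at 24 h, and -1.18, -1.07 and -0.97 at 48 h. At 72 h they had -0.98, -1.09 and -0.73. At 96 h they spread widely, from -0.13 and -0.68 to -1.99 on replicate 3.

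**Figure D1:**
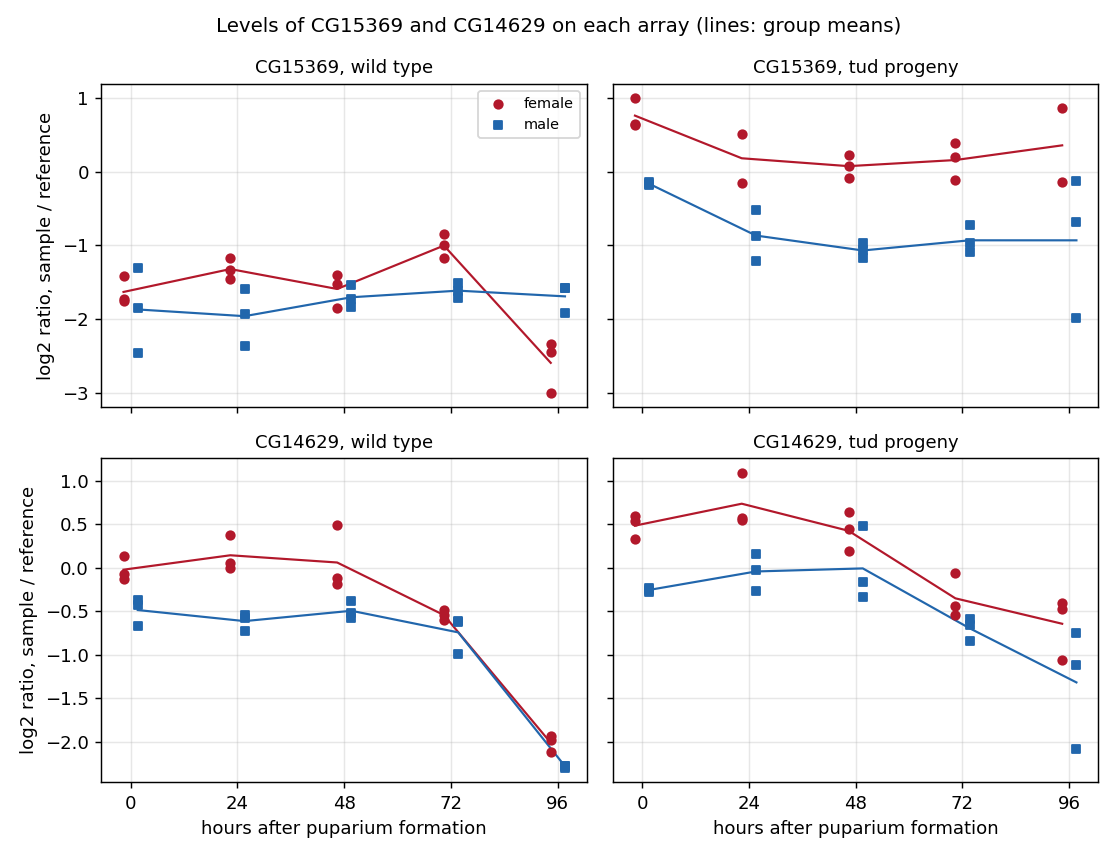
Log2 ratio of sample to common reference of CG15369 (upper row) and CG14629 (lower row) on each array against hours after puparium formation, in wild type (left) and tud progeny (right), with circles for females, squares for males and lines through the group means. CG15369 of tud females lies near or above 0 at all hours, and CG14629 falls after 48 h in both sexes of both genotypes, in wild type to means of -2.01 in females and -2.28 in males.

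CG14629 stayed near the level of the reference until 48 h and then fell in every arm, and it had a value on all 60 arrays. Wild type females had -0.13, -0.07 and 0.13 at 0 h, 0.37, -0.00 and 0.06 at 24 h, and 0.50, -0.12 and -0.19 at 48 h. They then had -0.48, -0.60 and -0.55 at 72 h and -2.12, -1.94 and -1.98 at 96 h. Wild type males had -0.37, -0.42 and -0.67 at 0 h, -0.57, -0.54 and -0.72 at 24 h, and -0.38, -0.53 and -0.58 at 48 h. They lay below the females throughout, with -0.997, -0.62 and -0.61 at 72 h and -2.28, -2.28 and -2.30 at 96 h. Tud females had 0.53, 0.33 and 0.59 at 0 h, 0.55, 0.58 and 1.09 at 24 h, and 0.64, 0.44 and 0.19 at 48 h. They then had -0.55, -0.06 and -0.44 at 72 h and -0.40, -0.47 and -1.06 at 96 h. All 9 arrays of tud females up to 48 h were above 0, and all 6 later ones were below it. Tud males had -0.25, -0.27 and -0.24 at 0 h, -0.27, 0.16 and -0.02 at 24 h, and -0.17, -0.33 and 0.48 at 48 h. Their values at 72 h were -0.59, -0.84 and -0.66, and at 96 h -0.75, -1.12 and -2.09, the last of these again on replicate 3.

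The 20 group means of CG15369 spanned 3.36 on the log2 scale and those of CG14629 3.02. For CG15369 the order began with the 5 groups of tud females, from 0.76 at 0 h to 0.07 at 48 h, went on with tud males at 0 h (-0.17), and ended with wild type females at 96 h (-2.60). For CG14629 tud females at 24, 0 and 48 h stood first, at 0.74, 0.48 and 0.43, and the wild type groups at 96 h stood last. The ranges of the arrays overlapped in 17 of the 19 pairs of neighbours in the order of CG15369 and in 18 of the 19 pairs of CG14629. Neighbours in a sorted order lie close by construction, so this overlap does not show whether groups differ, and the order of neighbours is descriptive. The standard deviation within a group had a median of 0.20 for CG15369 and 0.18 for CG14629, and reached 0.96 and 0.69 in tud males at 96 h.

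Wild type pupae show whether the sex difference of these genes is also seen in animals with a germline. The wild type values were known when the pair was chosen, so the tests on them are not independent support for a sex difference. CG14629 was higher in wild type females on every array at every hour. From the first hour to the last its female minus male difference was 0.46, 0.76, 0.56, 0.20 and 0.27, each with a standard error (SE) of 0.22. The mean over the 5 hours was 0.45 ± 0.10 (SE), or 1.37-fold, and the joint test over the hours was past the threshold of an adjusted p of 0.15 (adjusted p = 0.00337, moderated F test in limma). That test called 72.4% of the 3791 probes tested, so the call alone does not set CG14629 apart. The median difference of all probes tested was itself 0.20 toward females, and CG14629 stood 0.25 above it, higher than 84.9% of probes. Separation at all 5 hours with females higher was seen in 1.11% of the probes, although the gap between the nearest arrays of the sexes was only 0.01 at 72 h, where the difference was 0.07 without wild type male replicate 1.

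CG15369 did not keep one direction in wild type, in contrast to the female-higher pattern for which it was chosen. In order of hour its female minus male difference was 0.24, 0.64, 0.11, 0.61 and -0.90, each with an SE of 0.29, and the mean was 0.14 ± 0.13 (SE), below the median of all probes. The arrays of the sexes overlapped at 0 and 48 h. All females lay above all males at 24 and 72 h, and all males lay above all females at 96 h. The share of all probes that separate in this way was not computed, so nothing is read from the separation alone. The joint test over the hours was past the threshold (adjusted p = 0.0114), as was the test of a change of the sex difference over time (adjusted p = 0.024), which called 34.5% of probes. The sex difference at 96 h was 1.14 ± 0.41 (SE) lower than that at 0 h, with an adjusted p of 0.0442. For CG14629 the same joint test of a change over time had an adjusted p of 0.551, with differences from the 0 h value between -0.27 and 0.29.

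At single hours, 13.3%, 22.7%, 14.7%, 26.1% and 21.3% of probes were called higher in wild type females from the first hour to the last, and 20.6% were called higher in wild type males at 96 h. CG14629 was called at 24 h (adjusted p = 0.0113) and at 48 h (adjusted p = 0.0921), and the remaining hours of 0, 72 and 96 h had adjusted p of 0.172, 0.523 and 0.383. The 0 h difference passed with only the wild type arrays in the fit (adjusted p = 0.0683). CG15369 was called higher in females at 24 h (adjusted p = 0.107) and 72 h (adjusted p = 0.122) and higher in males at 96 h (adjusted p = 0.0157), and its adjusted p was 0.694 at 0 h and 0.812 at 48 h. After median centring of the arrays the calls of CG15369 at 24 and 72 h (adjusted p = 0.203 and 0.271) and of CG14629 at 48 h (adjusted p = 0.282) were lost, whereas CG14629 at 24 h and CG15369 at 96 h remained past the threshold. The female call of CG15369 at 72 h was lost without any of 5 of its 6 arrays, with differences of 0.56, 0.66 and 0.61 without male replicates 1, 2 and 3 and of 0.53 and 0.61 without female replicates 1 and 3. That at 24 h was lost with array weights (0.46, adjusted p = 0.195) and without male replicate 1 (0.44) or female replicates 1 (0.56) or 2 (0.65), and that of CG14629 at 48 h without male replicates 2 (0.54) or 3 (0.51) or female replicate 1 (0.34).

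**Figure D2:**
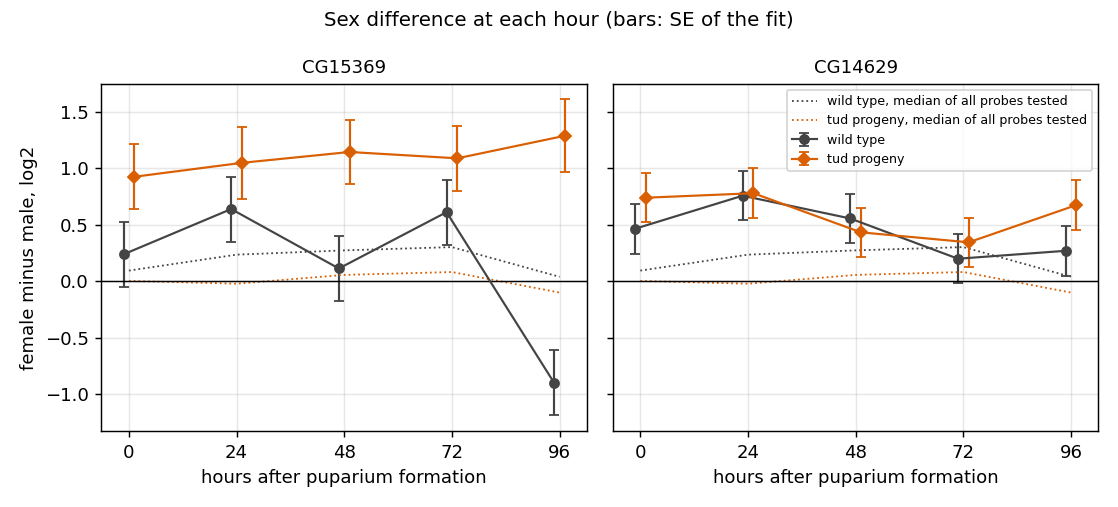
Female minus male difference in log2 ratio of CG15369 (left) and CG14629 (right) against hours after puparium formation, in wild type (circles) and tud progeny (diamonds), with bars for the SE of the fit and dotted lines for the median of all probes tested. CG15369 stays between 0.93 and 1.29 in tud progeny and changes sign at 96 h in wild type, where it is -0.90, while CG14629 is above 0 at all hours in both genotypes.

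In tud progeny, where the germline is absent, the female minus male difference of CG15369 was, in order of hour, 0.93 ± 0.29 (SE), 1.05 ± 0.32, 1.15 ± 0.29, 1.09 ± 0.29 and 1.29 ± 0.32. Its mean over the hours was 1.10 ± 0.14 (SE), or 2.14-fold, rank 2 from the highest among the 3241 probes with enough values. All tud females were above all tud males at 4 of the 5 hours, and at 96 h the lowest female and the highest male overlapped by 0.02. CG14629 was 0.74, 0.78, 0.43, 0.34 and 0.67 higher in tud females from 0 to 96 h, each with an SE of 0.22, and its mean was 0.59 ± 0.10 (SE), or 1.51-fold. Its arrays did not overlap at 0, 24 and 72 h and overlapped at 48 and 96 h. Separation at 3 or more hours with females higher occurred in 1.2% of the probes, a share from which nothing is read because this difference chose the members. The median over all probes was 0.00, unlike in wild type. At 96 h replicate 3 was the lowest tud array in both sexes for both genes, with CG15369 missing on 1 female array. If same-numbered arrays are pairs, leaving out a male array alone breaks a pair. The size of both differences at 96 h changed when single tud male arrays were left out. Without replicate 3 they were 0.76 for CG15369 and 0.29 for CG14629, and without replicate 1 they were 1.69 and 0.96. For CG14629 leaving out single arrays gave from 0.27 (without tud male replicate 2) to 0.68 (without tud male replicate 3) at 48 h, and from 0.20 (without tud female replicate 2) to 0.44 (without tud female replicate 1) at 72 h. Leaving out both doubtfully labelled tud female arrays of 48 h gave differences of 1.30 for CG15369 and 0.20 for CG14629 at that hour. Of 5 markers of the larval fat body, 4 also had a higher mean in tud females over the hours, with a median difference of 0.39 and a range from -0.01 to 1.17, the highest being the X-linked Larval serum protein 1 alpha. In wild type the same 5 markers went both ways between the sexes. There 3 of the 5 had a higher mean in females, with a median of 0.016 and a range from -0.62 to 0.535. The part of these markers in the differences of CG15369 and CG14629 was not tested. Whether the sex difference itself differs between the genotypes was not tested, since that contrast contains the one that chose the members. Side by side, the mean for CG15369 was 1.10 in tud progeny and 0.14 in wild type, and for CG14629 it was 0.59 and 0.45.

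The comparison of tud progeny with wild type was averaged over the sexes, which makes it a different contrast from the sex difference that chose the members. It still contains the tud female values that entered that choice, so the tests on it are not independent support. CG15369 was higher in tud progeny at every hour, by 2.05 ± 0.20 (SE) in white prepupae at 0 h and by 1.30 ± 0.22, 1.15 ± 0.20, 0.92 ± 0.20 and 1.86 ± 0.22 at the hours that followed. The mean was 1.46 ± 0.09 (SE), or 2.74-fold, against a median of 0.10 over the 2843 probes tested, which placed it at rank 9 from the highest. The joint test had an adjusted p of 9.23e-15, and 81.1% of probes were called by it. At single hours the adjusted p was 9.43e-10, 2.07e-05, 5.09e-05, 0.00115 and 4.86e-09 from 0 to 96 h, at hours at which 14.7%, 34.5%, 14.9%, 13.2% and 36.3% of probes were called higher in tud progeny. Within a sex all tud arrays of CG15369 were above all wild type arrays at 9 of the 10 combinations of sex and hour, the exception being males at 96 h. CG14629 was higher in tud progeny by a mean of 0.53 ± 0.07 (SE), or 1.45-fold, with a joint adjusted p of 4.11e-08, and was above 93.7% of probes. In order of hour its difference was 0.37 (adjusted p = 0.103), 0.58 (adjusted p = 0.00432), 0.43 (adjusted p = 0.052), 0.12 (adjusted p = 0.672) and 1.17 (adjusted p = 6.45e-08), each with an SE of 0.16, so that 72 h alone was not past the threshold. Its tud arrays were above all wild type arrays of the same sex at 7 of the 10 combinations, and 3.06% of the 2843 probes reached 7 or more.

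The call of CG14629 at 48 h was lost without tud male 48 h replicate 3 (0.30, adjusted p = 0.208) and without tud female 48 h replicates 1 and 2 together (0.31, adjusted p = 0.328). That at 0 h was lost without wild type male replicate 3 (0.32), wild type female replicates 1 (0.34) or 2 (0.36), or tud female replicates 1 (0.36) or 3 (0.34). Within the sexes, given as values only, CG15369 was higher in tud progeny by 1.94 ± 0.14 (SE) in females and 0.98 ± 0.13 in males, with its largest difference, 2.95 ± 0.32, in females at 96 h. For CG14629 these means were 0.61 ± 0.10 (SE) in females and 0.46 ± 0.10 in males.

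**Figure D3:**
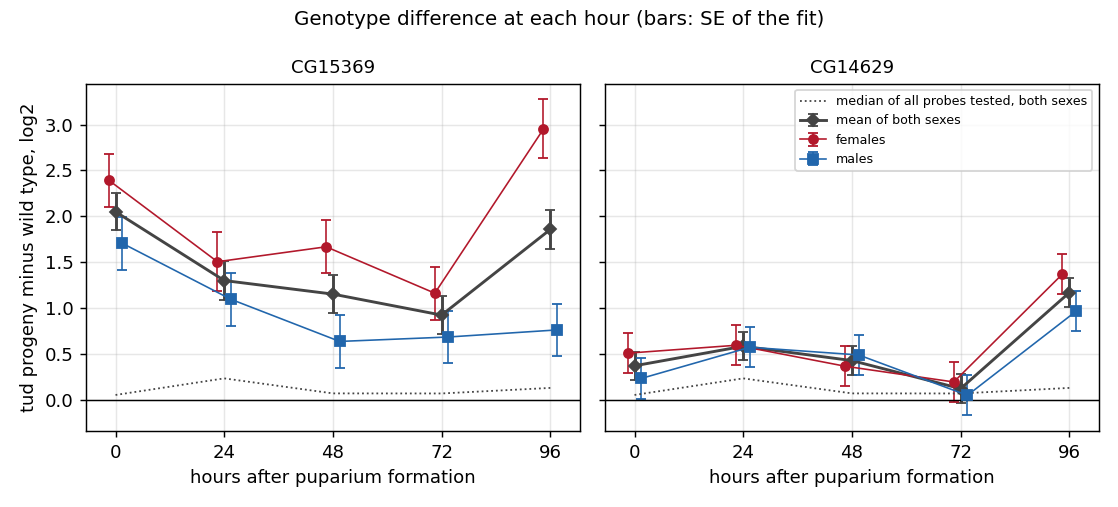
Tud progeny minus wild type difference in log2 ratio of CG15369 (left) and CG14629 (right) against hours after puparium formation, for the mean of both sexes (diamonds), females (circles) and males (squares), with bars for the SE of the fit and a dotted line for the median of all probes tested over both sexes. CG15369 differs most at 0 h (2.05) and 96 h (1.86), and CG14629 at 96 h (1.17).

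Fat body markers also differed in the genotype comparison, and their levels stand beside these values. The larval serum proteins and fat body proteins served as markers of the larval fat body, and 5 of the 6 genes on the list had a paired probe. Names came only from lists published with the study, so these probes are not a representative sample either. All 5 were higher in tud progeny over the hours, with mean differences of 0.56 to 1.52. At 96 h all 5 were higher by 2.67 to 2.99, whereas at 72 h 3 of the 5 were higher and the range ran from -0.19 to 0.64. The list mean per array at 96 h lay between -4.96 and -4.31 in wild type males and between -4.92 and -4.66 in wild type females, and between -3.23 and -1.86 in tud males and between -1.83 and -1.46 in tud females. Its part in the differences of CG15369 and CG14629 was not tested. In RNA of whole animals, fewer cells of a type and less RNA per cell cannot be told apart.

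Across metamorphosis, and averaged over the sexes, CG14629 declined in both genotypes in the second part of the series. In wild type it was steady from 0 to 48 h, fell by 0.43 ± 0.16 (SE) from 48 to 72 h (adjusted p = 0.0223, with 32.8% of probes lower at that step) and fell by 1.505 ± 0.16 from 72 to 96 h (adjusted p = 3.81e-11, with 40.9% lower). In tud progeny it fell by 0.73 ± 0.16 (SE) from 48 to 72 h (adjusted p = 0.000116, with 37.1% lower) and fell by 0.46 ± 0.16 from 72 to 96 h (adjusted p = 0.0121, with 36.0% lower). That last call was lost after quantile normalization between arrays (adjusted p = 0.486), and without tud male 96 h replicate 3 the step was -0.27 (adjusted p = 0.112). The difference between the genotypes in these steps was not tested. From 72 to 96 h the 5 fat body markers changed by -3.60 to -2.18 in wild type and by -0.67 to 0.03 in tud progeny, and their part in the steps of CG14629 was not tested.

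CG15369 changed less with time. In wild type it fell by 0.83 ± 0.20 (SE) from 72 to 96 h (adjusted p = 0.000546), and after quantile normalization this step was 0.13 (adjusted p = 0.633). The group means of females went from -1.005 to -2.60 at this step, with males at -1.62 and -1.70. The earlier wild type steps were 0.11, -0.007 and 0.34 with adjusted p of 0.718, 0.983 and 0.181, and the last of them passed with only the wild type arrays in the fit (adjusted p = 0.102), with median centring (0.40, adjusted p = 0.113) and with array weights (0.29, adjusted p = 0.0643). The wild type step from 24 to 48 h was -0.47 after quantile normalization and then passed (adjusted p = 0.0699). In tud progeny CG15369 fell by 0.64 ± 0.22 (SE) from 0 to 24 h (adjusted p = 0.0122, with 21.8% of probes lower), and the later steps were -0.15, 0.11 and 0.10 with adjusted p of 0.588, 0.68 and 0.721. Without tud male 96 h replicate 3 the last of these was 0.36 (adjusted p = 0.104). The joint tests of time had adjusted p of 0.00628 for CG15369 and 7.68e-16 for CG14629 in wild type, where 93.5% of probes were called, and of 0.00422 and 9.39e-11 in tud progeny, where 95.4% were called.

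Of the 14 other genes on a list of cysteine protease inhibitors and papain-like proteases, 7 had a paired probe and 6 were measured on enough arrays for the joint tests over the hours. The remaining one, CG6337, was tested at 48 h, where it was 1.51 ± 0.55 (SE) higher in wild type females (adjusted p = 0.097) and its genotype difference was 0.73 ± 0.41 (adjusted p = 0.269). A probe had a name only if it was on a list published with the study from these data. The counts and medians of this list, here and over time, are therefore not a like comparison with all probes. In the genotype comparison the joint test, which has no direction, called all 6, and all 6 had a mean difference above 0, with a median of 0.33 against 0.10 for all probes. Of all probes 53.7% were called with a higher mean in tud progeny and 27.4% with a higher mean in wild type. The proteases were CtsL3 (0.94, adjusted p = 8.3e-07), CtsK1 (0.46, adjusted p = 2.98e-08), CtsL1 (0.36, adjusted p = 0.00296) and CtsB (0.15, adjusted p = 0.0729), all cathepsins by name. The others were cer, or crammer, which resembles the inhibitory propeptide of a cathepsin (0.30, adjusted p = 0.000137), and CG31313 (0.18, adjusted p = 1.27e-06), listed with the cystatins. None of these 6 mean differences reached the 1.46 of CG15369. The direction was not the same at all hours, since CG31313 was 1.34 higher in tud progeny at 24 h (adjusted p = 3.43e-05) and differed by -1.04 at 96 h (adjusted p = 0.000289), and CtsK1 differed by -0.70 at 0 h (adjusted p = 0.0236) and by 1.52 at 24 h (adjusted p = 5.39e-07). With median centring 5 of the 6 were called, CtsB having an adjusted p of 0.212. For sex in wild type the joint test called 3 of the 6, each with a mean higher in females, CtsB by 0.28 (adjusted p = 0.000259), CtsK1 by 0.23 (adjusted p = 0.00387) and CtsL1 by 0.19 (adjusted p = 0.117). Single hours went both ways, CtsB differing by -0.47 at 72 h (adjusted p = 0.0634) and 0.86 at 96 h (adjusted p = 0.00038), and CtsK1 by 0.80 at 24 h (adjusted p = 0.0453) and -0.84 at 96 h (adjusted p = 0.0279). CtsL3, not called jointly, differed by -0.90 at 96 h (adjusted p = 0.0626). With centring 2 were called jointly, CtsL1 having an adjusted p of 0.19. The list median was 0.13 against 0.20 for all probes, of which 53.3% were called with a mean higher in females and 19.0% with a mean higher in males.

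From 0 to 96 h, 5 of the 6 listed genes fell and 1 rose in wild type, with a list median of -2.32 against -0.14, where 43.4% of all probes fell and 32.3% rose. In tud progeny 4 fell and 2 rose, with a median of -2.02 against -0.14, where 42.9% of all probes fell and 36.7% rose. The change of crammer was -4.46 in wild type and -3.63 in tud progeny. That of CtsB was -2.26 and -2.22, that of CtsL1 -2.37 and -1.83, and that of CtsL3 -2.81 and -2.82. CG31313 went the other way, with a rise by 4.52 in wild type and by 2.72 in tud progeny. CtsK1 fell by 0.69 in wild type and rose by 0.54 in tud progeny.

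The profiles of the 2 genes over the 20 group means were only moderately alike, with a Pearson r of 0.55 and a Spearman rho of 0.46, and among the 2842 probes compared CG14629 ranked 63 in likeness to CG15369 and CG15369 ranked 850 in likeness to CG14629. The points share the reference, the arrays and the design, so these coefficients are descriptive. The 5 probes most like CG15369 were DAC026C04 (r = 0.79), DAC029H06 (r = 0.78), CG31806 (DAC032K17, r = 0.78), Larval serum protein 1 alpha (DAC021A11, r = 0.76) and CG31775 (DAC032I05, r = 0.75), and no probe exceeded 0.80. Larval serum protein 1 alpha, an X-linked storage protein gene of the larval fat body, is itself on the fat body list, and its group mean fell from 1.29 at 0 h to -1.16 at 96 h in tud females and from -0.86 to -4.63 in wild type females.

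CG14629 had many probes with a like profile, 218 of them with an r above 0.80. The closest were DAC027E23 (r = 0.95), DAC021C16 (r = 0.93), DAC031C04 (r = 0.92), Ilp6 (DAC015K20, r = 0.92) and DAC026K05 (r = 0.92). Ilp6, an X-linked gene, encodes an insulin-like peptide made in the fat body, where it promotes growth during the period without feeding. Its group mean fell from 0.48 at 0 h to -1.97 at 96 h in wild type females and from -0.22 to -2.19 in wild type males, and from 0.70 to -1.11 in tud females and from 0.14 to -1.76 in tud males. Names were at hand only for probes on lists published with the study, so the named probes among these are not a representative sample. With rank correlations, 1 of the 5 probes for CG15369 and 2 of the 5 for CG14629 were again among the closest 5.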

How the data were processed

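Values were those deposited by the authors: log2 ratios of sample to common reference from dual-colour oligonucleotide arrays, each array normalized by the authors with a global loess (LIMMA, version not given in the sources used here). The authors had discarded marked elements and those weak in both channels. A normalization between arrays and a background correction were not stated, and raw intensities were not used here.

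Of 15776 elements, 32 controls were left out. A model with 20 group means was fitted to all 60 arrays (limma 3.58.1, R 4.3.3). A probe was tested where each group compared had values on at least 2 of 3 arrays. The threshold was a Benjamini-Hochberg adjusted p of 0.15 over all probes tested, the level of the study. Hours were tested jointly (moderated F test) and singly. The fitting code was tested on simulated data.

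The members and lists were chosen with earlier results of these data known. Named genes were the members, the listed cysteine protease and inhibitor genes with a probe, the 5 probes with the highest Pearson r with each member, and roX1 (roX2 was added after seeing the data), beta-Tubulin at 85D and Male-specific RNA 87F as checks of the labels. Gene names came from lists published with the study (2357 probes) and chromosomes from the Release 6 RefSeq table, whose build differs from that of the probes, so positions are not given. The alternatives were all 3 arrays per group, median centring, quantile normalization, array weights, a replicate block, 1 genotype alone, each array left out in turn and Spearman correlations. Leaving out both doubtful tud female 48 h arrays was added after seeing the data. The number of arrays limits the precision.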

Additional observations from a re-analysis of the deposited data

Results flagged for a closer look

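The wild type sex difference of CG15369 differed between hours. The female minus male difference at 96 h was lower than that at 0 h by 1.14 on the log2 scale (-1.14 ± 0.41, SE, adjusted p = 0.0442, limma), since all 3 wild type males lay above all 3 females at 96 h and the arrays overlapped at 0 h. Leaving out single wild type arrays gave values from -1.42 to -0.85. The joint test of a change of the sex difference over time called 34.5% of probes, and the share for 96 h alone was not computed.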

How the results depend on the processing

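Of 382 values recomputed under alternatives other than leaving out a single array, 28 changed direction, call or size, and so did 40 of 826 with an array left out. The cause was not tested. The mean tud sex difference, the joint tests of sex in wild type, of genotype and of time, and all genotype calls of CG15369 kept their direction and call under all of them. Median centring gave wild type sex differences of 0.54, -0.016 and 0.48 for CG15369 at 24, 48 and 72 h and of 0.43 for CG14629 at 48 h. It also turned the 24 to 48 h step of CG15369 to 0.055 in wild type and 0.0021 in tud progeny and that of CG14629 to 0.025 in tud progeny. Quantile normalization gave 0.70 (adjusted p = 0.0747) for the wild type sex difference of CG15369 at 48 h, and turned its wild type steps from 0, 48 and 72 h to -0.043, -0.051 and 0.13 and the 24 to 48 h step of CG14629 to -0.057 in wild type and 0.015 in tud progeny. Array weights gave sex differences of 0.46 (CG15369, 24 h, adjusted p = 0.195) and 0.42 (CG14629, 0 h, adjusted p = 0.0414), and wild type steps of CG14629 of -0.024 (0 to 24 h) and -0.036 (24 to 48 h). With wild type arrays alone CG14629 at 0 h kept 0.46 and passed. Without the doubtful tud female 48 h arrays the genotype difference of CG14629 at 48 h was 0.31. Leaving out single arrays gave wild type sex differences of CG15369 from -0.055 (without wild type male 0 h replicate 3) to 0.52 at 0 h, from 0.44 to 0.82 at 24 h and from 0.53 to 0.69 at 72 h, and of CG14629 from 0.34 to 0.68 at 48 h. Genotype differences of CG14629 ran from 0.32 to 0.41 at 0 h and from 0.30 to 0.53 at 48 h. Small steps that changed sign ran, for CG15369, from -0.037 to 0.25 (wild type, 0 to 24 h), from -0.11 to 0.086 (wild type, 24 to 48 h) and from -0.10 to 0.36 (tud progeny, 72 to 96 h), and for CG14629 from -0.038 to 0.058 and from -0.091 to 0.081 (wild type, 0 to 24 and 24 to 48 h). Same-numbered arrays of both sexes deviated together in some groups and not in others (9 of 30 pairs with r above 0.1, from -0.41 to 0.46). In tud progeny at 96 h r was 0.34, 0.02 and 0.46 for replicates 1, 2 and 3. Whether the numbers pair the samples is thus not known, and the main fit treats the arrays as unpaired. With a replicate block the wild type sex difference of CG14629 at 24 h stayed at 0.76, the genotype mean of CG15369 was 1.45, and no call changed. Depth and signal over background are unknown, since only ratios were used.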
